A study of Mus musculus with 57 samples.

Results

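The hypoxia response genes described here were 10 genes of the HIF pathway, namely Hif1a, Epas1, Egln1, Egln2, Egln3, Vegfa, Ankrd37, Adm, Higd1a and Ndrg1. They were taken by gene symbol from the tables of RNA-seq read counts, where all 10 were found once among 52853 genes. Egln3 was chosen by its count values in brown fat, where it fell in the mutant mice, so its brown fat values are given as a description, with no test.

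The tables held adipose tissue of male mice homozygous for the R707W allele of Mfn2 (KI) and of their wild-type (WT) littermates, housed together. Mitofusin 2, the product of Mfn2, fuses mitochondrial outer membranes, and the allele was made by CRISPR in the germline, from 1 founder, with a silent restriction site, in a C57BL/6J colony, so every cell of a KI mouse carried it. From 5 weeks of age the mice ate, for 6 months, either chow or a high-fat diet (HFD) with 45% of its energy from fat. Brown adipose tissue (BAT) on HFD came from 6 WT and 6 KI mice, inguinal white adipose tissue (WAT) on HFD from 8 WT and 8 KI mice, and inguinal WAT on chow from 7 WT and 6 KI mice. The 41 columns of counts, 1 per mouse in each table, are called mice here, and the 2 technical replicates of each mouse in inguinal WAT on HFD stood as 1 column. Whether mice in different tables were the same animals is not given in the sources used here. Each tissue and diet was a table of its own, so a difference between tissues or diets and a difference between runs of libraries cannot be told apart.

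Cells sense oxygen through HIF, a transcription factor made of an oxygen-labile alpha subunit (HIF-1alpha from Hif1a, HIF-2alpha from Epas1) and a stable beta subunit. With oxygen present, the prolyl hydroxylases PHD2 (Egln1), PHD1 (Egln2) and PHD3 (Egln3) hydroxylate the alpha subunit, VHL binds it and it is degraded. When oxygen or the cosubstrates of the hydroxylases run short, the alpha subunit persists and switches on genes for glycolysis, vessel growth and mitochondrial adjustment. Egln3, Egln1, Vegfa, Adm, Ankrd37, Higd1a and Ndrg1 are well-known targets of the pathway. The control of HIF-alpha is mostly at the protein level, which mRNA does not show.

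HIF binds the letters ACGTG or GCGTG, the core of the hypoxia response element. These were searched on both strands in RefSeq promoters (build GRCm38.p6, 250 bases before to 50 after each annotated start), which matched 8 of the 10 genes, with 10 promoters. ACGTG stood in 7 of these 10 promoters and in 19.6% of all 32851 promoters, and either motif stood in 9 of 10 and in 43.8% of all promoters. The 250 bases upstream of the start are shown for Egln3, Ankrd37 and Vegfa. They run 5′ to 3′ on the gene's strand (the minus strand for all 3), with either motif, on either strand, in capitals. The Egln3 window (chr12:54203875-54204124) held ACGTG once, at position -229, counted from the start to the first base of the motif. The Ankrd37 window (chr8:45999851-46000100) held 4 matches, at -241, -155, -152 and -6, of which the middle pair overlaps. This window lies at a RefSeq start within the gene as counted, which reaches chr8:46005707. The window at the first Vegfa start (chr17:46032378-46032627) held none, and that at a second RefSeq start within the gene held 2. A match here is only a run of letters, and binding was not measured.
Egln3: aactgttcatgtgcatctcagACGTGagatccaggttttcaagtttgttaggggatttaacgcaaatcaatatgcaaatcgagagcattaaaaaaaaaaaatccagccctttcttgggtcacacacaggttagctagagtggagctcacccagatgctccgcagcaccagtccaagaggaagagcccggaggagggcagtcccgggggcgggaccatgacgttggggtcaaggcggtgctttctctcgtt
Ankrd37: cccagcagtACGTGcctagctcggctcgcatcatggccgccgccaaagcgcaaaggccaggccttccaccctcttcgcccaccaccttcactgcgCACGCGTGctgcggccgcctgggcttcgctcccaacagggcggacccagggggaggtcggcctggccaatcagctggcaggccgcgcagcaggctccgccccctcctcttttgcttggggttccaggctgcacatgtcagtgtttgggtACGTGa
Vegfa: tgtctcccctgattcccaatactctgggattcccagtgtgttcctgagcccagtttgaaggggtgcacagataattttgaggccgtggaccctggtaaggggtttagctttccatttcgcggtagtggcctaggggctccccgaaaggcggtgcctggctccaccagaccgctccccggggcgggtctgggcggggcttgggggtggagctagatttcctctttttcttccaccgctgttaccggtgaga

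Depth was 8042591 to 11720458 counts per mouse in BAT and in inguinal WAT on chow, and 17572752 to 25680411 in inguinal WAT on HFD. Levels are given as counts-per-million (CPM) on library sizes scaled by TMM factors over all 41 mice together, and levels of different genes are compared only as CPM per kb of gene length. Mfn2 itself ranged from 115.6 to 567 CPM over the 41 mice, and gene counts cannot show the codon change. In all mice Xist had at most 7 counts and 4 Y-linked genes summed to at least 1006, as labelled for males. The 9 brown adipocyte markers summed to 12174 to 22298 CPM in BAT and 22.3 to 860 CPM in inguinal WAT. In 6 libraries skeletal muscle markers summed to over 5 times the median of their group (BAT WT mice 1 and 2, BAT KI mouse 6, inguinal WAT on HFD KI mice 3 and 5, and on chow KI mouse 4, the highest at 72334 CPM). In 7 libraries, all inguinal WAT, lymphocyte markers summed to over 3 times the median of their group (on HFD KI mouse 2 and WT mice 2 and 6, on chow KI mice 1 and 3 and WT mice 1 and 4). Mitochondrial genes took 10.6% to 12.8% of counts in BAT of KI mice and 14.6% to 18.4% in WT mice, and 2.15% to 3.68% against 5.40% to 14.8% in inguinal WAT on HFD.

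**Figure D1:**
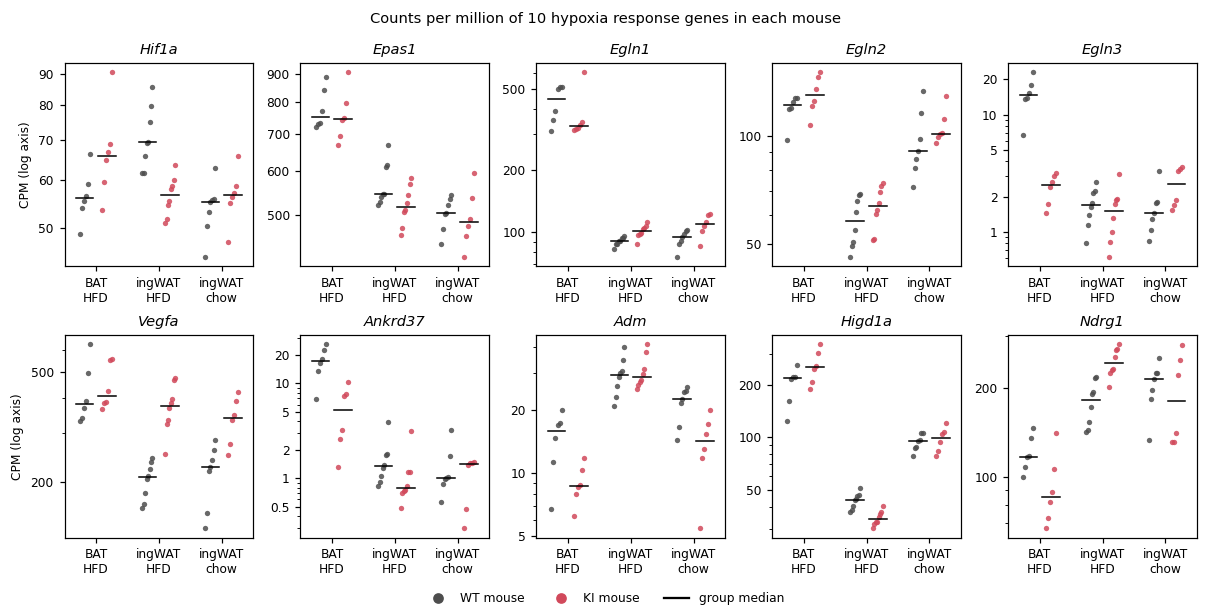
Level of each of the 10 genes in every mouse, in CPM on log axes that differ between panels, for BAT on HFD, inguinal WAT (ingWAT) on HFD and ingWAT on chow, with WT mice in grey, KI mice in red and a line at each group's median. Egln3 in BAT of WT mice (6.69 to 22.9 CPM) stood above every other group, and Vegfa in ingWAT on HFD did not overlap between WT (160 to 244 CPM) and KI mice (251 to 473 CPM).

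The genotype was compared within each of the 3 tables. A gene was called where its adjusted p was below 0.01 in edgeR's quasi-likelihood test, with Benjamini-Hochberg adjustment over all genes tested, and fold changes are KI over WT on the log2 scale with their standard error. In BAT, 0 of the 9 genes tested were called, against 1.83% of 13267 genes. Of these 9, 3 had an unadjusted p below 0.05, and DESeq2 called 1, Ankrd37. In inguinal WAT on HFD 4 of 10 were called, against 11.5% of 16471 genes, with Vegfa and Ndrg1 higher and Hif1a and Higd1a lower in KI mice. In inguinal WAT on chow 0 of 10 were called by edgeR, against 3.27% of 14629 genes, with 3 at an unadjusted p below 0.05 and 1, Vegfa, called by DESeq2. Separate counts of calls do not show that the effect differed between tables, which the interaction tests further on address. The median fold change of the genes tested was -0.08 in BAT, -0.02 in inguinal WAT on HFD and 0.07 on chow, against -0.01, 0.0055 and -0.00011 over all genes.

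**Figure D2:**
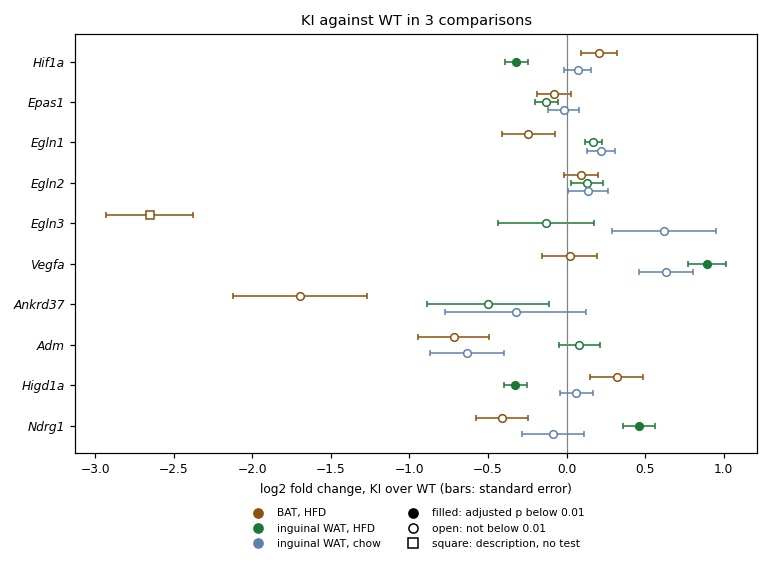
Fold change of each of the 10 genes in KI over WT mice, on the log2 scale with its standard error, in BAT on HFD, inguinal WAT on HFD and inguinal WAT on chow. Filled points had an adjusted p below 0.01, as for Vegfa, Ndrg1, Hif1a and Higd1a in inguinal WAT on HFD, and the square marks Egln3 in BAT, which was chosen for its value of -2.65 and was not tested.

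Among the alpha subunits, Hif1a (chr12:73901375-73947530, plus strand) was lower in inguinal WAT of KI mice on HFD. Its level there had a lowest, median and highest value of 61.5, 69.2 and 85.5 CPM in 8 WT mice and 50.9, 56.7 and 63.4 CPM in 8 KI mice. The groups overlapped only narrowly. The fold change was -0.32 ± 0.07 (adjusted p = 0.0036), and it was no longer called without the muscle-rich mice (-0.28, adjusted p = 0.0238), without the lymphocyte-rich mice (-0.33, adjusted p = 0.0110) or with library totals (-0.23, adjusted p = 0.0169). In BAT the values ran the other way, 48.8, 55.9 and 66.3 CPM in WT against 53.4, 65.6 and 90.5 CPM in KI mice, with a fold change of 0.21 ± 0.12 that did not pass the test (adjusted p = 0.280). On chow, Hif1a stood at 44.7 to 62.8 CPM in WT and 47.3 to 65.7 CPM in KI mice (0.07 ± 0.09, adjusted p = 0.669). Epas1, the alpha subunit best known from endothelium and also expressed by fat cells, was the steadier of the pair. Its medians in WT and KI mice were 753 and 747 CPM in BAT, 546 and 517 CPM in inguinal WAT on HFD, and 504 and 484 CPM on chow, and none of the 3 fold changes passed the test. The 10 endothelial markers, read because Epas1 and Vegfa act in or on vessels, had 0 of 10 called in each genotype comparison. Their sum ranged from 2101 to 3146 CPM in KI against 2300 to 2725 CPM in WT BAT. In inguinal WAT it ranged from 1910 to 2557 CPM in KI against 2086 to 2880 CPM in WT mice on HFD. On chow the ranges were 1457 to 2063 CPM in KI and 1692 to 2412 CPM in WT mice. Negative fold changes numbered 6 of 10 in BAT, 7 on HFD and 9 on chow.

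Of the prolyl hydroxylases, Egln3 (chr12:54178981-54203860, minus strand) carried the pattern it was chosen for. In BAT its 6 WT mice had 6.69, 14.7 and 22.9 CPM (lowest, median, highest) and its 6 KI mice 1.46, 2.54 and 3.21 CPM, from 44 to 136 and from 9 to 27 counts. The KI mean was 0.159 of the WT mean in the fit (-2.65 ± 0.27 on the log2 scale). The lowest WT mouse stood above the highest KI mouse, as 3.68% of all genes tested in BAT had no overlap in either direction, from which nothing is read for a gene chosen on these values. In inguinal WAT, which the choice of Egln3 did not use, all 29 mice lay between 0.618 and 3.57 CPM, the range in which BAT of KI mice also lay. There the genotypes overlapped and the fold change was -0.13 ± 0.30 on HFD (adjusted p = 0.816) and 0.62 ± 0.33 on chow (adjusted p = 0.269). Without the lymphocyte-rich mice the HFD value turned to 0.03.

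Neither Egln1 nor Egln2 passed the test in BAT. Egln1, the main hydroxylase of HIF-1alpha in most cells, had 311, 444 and 510 CPM in WT against 314, 328 and 603 CPM in KI mice (-0.24 ± 0.17, adjusted p = 0.397). The value of 603 CPM came from KI mouse 5, whose 5 fellows lay between 314 and 345 CPM. Without that mouse the fold change was -0.41 (adjusted p = 0.0625). In inguinal WAT, KI mice had slightly more Egln1, with 82.8, 90.7 and 96.0 CPM in WT against 87.3, 101.5 and 112 CPM in KI mice on HFD, short of the threshold (0.17 ± 0.05, adjusted p = 0.0324) and past it with library totals (0.26, adjusted p = 0.0032). On chow the medians were 94.2 CPM in WT against 109.5 CPM in KI mice (0.22 ± 0.09, adjusted p = 0.141). Egln2, a hydroxylase that does not itself respond to HIF in most cells, had fold changes of 0.09, 0.13 and 0.14 in BAT, inguinal WAT on HFD and inguinal WAT on chow, and none passed the test.

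Of the secreted factors, Vegfa (chr17:46016993-46032369, minus strand), the main growth factor of blood vessels, was higher in inguinal WAT of KI mice on HFD. There the WT mice had 160, 207 and 244 CPM and the KI mice 251, 377 and 473 CPM. The groups did not overlap, as for 4.52% of all genes tested there, and the difference was 1.86-fold (0.89 ± 0.12 on the log2 scale, adjusted p = 3.4e-05). Vegfa was the only one of the 10 genes still called there without the lymphocyte-rich mice. On chow the values were 136, 227 and 282 CPM in WT against 250, 341 and 421 CPM in KI mice, with an overlap. That difference was 1.55-fold (0.63 ± 0.17) and missed the threshold in edgeR (adjusted p = 0.0340), but passed it in DESeq2 (adjusted p = 0.0065) and in edgeR fitted to all 6 groups at once (adjusted p = 0.0078). In BAT Vegfa had 333, 381 and 629 CPM in WT against 365, 407 and 557 CPM in KI mice (0.02 ± 0.18, adjusted p = 0.961). Its sign there changed with the mouse left out, between -0.06 and 0.18.

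Adm encodes adrenomedullin, a vasodilator peptide. In BAT it had 6.72, 15.9 and 20.02 CPM in WT against 6.24, 8.73 and 11.9 CPM in KI mice (-0.72 ± 0.23, adjusted p = 0.0643). On chow in inguinal WAT it had 14.4, 22.7 and 25.7 CPM in WT against 5.46, 14.3 and 19.98 CPM in KI mice (-0.63 ± 0.23, adjusted p = 0.108). Both medians were lower in KI mice, with overlap, and neither difference passed the test. On HFD in inguinal WAT the medians were 29.5 CPM in WT against 28.8 CPM in KI mice (0.08 ± 0.13).

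Ankrd37 (chr8:45996902-46005707, minus strand) encodes a small ankyrin repeat protein and is known as a direct target of HIF-1. In BAT it had 6.83, 17.3 and 26.1 CPM in WT against 1.31, 5.30 and 10.3 CPM in KI mice. Of the KI mice, 3 lay below every WT mouse and the other 3 overlapped the WT range. The fold change of -1.70 ± 0.42, 0.308-fold, missed the threshold in edgeR (adjusted p = 0.0299) and passed it in DESeq2 (adjusted p = 0.0092). In inguinal WAT Ankrd37 was low, from 0.298 to 3.95 CPM over all mice, and neither diet gave a difference that passed the test (-0.50 ± 0.39 on HFD and -0.33 ± 0.45 on chow). Lrp2bp and Ufsp2 overlap this locus on the opposite strand, and the strand setting of the counting is not given in the sources used here, so their reads and those of Ankrd37 may not be fully separate.

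**Figure D3:**
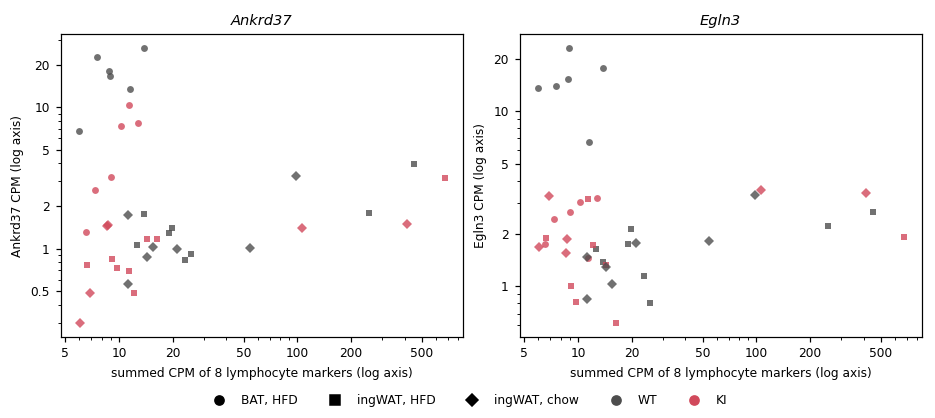
Level of Ankrd37 and of Egln3 in each of the 41 mice against the summed level of 8 lymphocyte markers, both in CPM on log axes, with shapes for the 3 tables and colours for the genotype. In inguinal WAT on HFD the highest Ankrd37 values, 3.95 CPM in WT mouse 2 and 3.16 CPM in KI mouse 2, were in the mice with the highest lymphocyte sums, 452 and 670 CPM, whereas all BAT mice had sums of 5.95 to 13.8 CPM.

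With each group's mean taken out, the log2 level of Ankrd37 correlated with that of the lymphocyte sum at r = 0.62 over 41 mice, Egln3 at 0.43 and Ndrg1 at -0.43, as descriptions of mice that share tables and depth. In BAT the sum ranged from 5.95 to 13.8 CPM in WT mice and from 6.53 to 12.8 CPM in KI mice. On chow, Egln3 was highest in the lymphocyte-rich KI mice 1 and 3 (3.57 and 3.41 CPM) and WT mouse 4 (3.31 CPM). Their lymphocyte sums were 106, 412 and 98.2 CPM. KI mouse 5 came next, at 3.29 CPM of Egln3 with a sum of only 6.90 CPM. The remaining lymphocyte-rich mouse on chow, WT mouse 1, had 1.82 CPM of Egln3 and a sum of 54.1 CPM. The part of lymphocytes in these values was not tested. Fewer cells of a type and less RNA per cell cannot be told apart in whole tissue.

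Ndrg1 (chr15:66929318-66969640, minus strand), a stress-responsive cytosolic protein gene of the N-myc downstream regulated family, was higher in inguinal WAT of KI mice on HFD. It had 142, 181 and 217 CPM in WT against 202, 242 and 281 CPM in KI mice, with a narrow overlap (0.46 ± 0.10, adjusted p = 0.0028). It was not called without the lymphocyte-rich mice (0.42, adjusted p = 0.0129) or in the fit of all 6 groups (0.46, adjusted p = 0.0343). In BAT the WT mice had 99.6, 117 and 147 CPM and the KI mice 66.9, 85.6 and 140 CPM (-0.41 ± 0.17, adjusted p = 0.135), and on chow the medians were 215 and 181 CPM (-0.09 ± 0.20). The antisense gene Gm17035 overlaps Ndrg1 and reached 2806 counts, against 7099 for Ndrg1, so a share of these values may be antisense.

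Higd1a, which encodes a small inner membrane protein of mitochondria induced by hypoxia, was lower in inguinal WAT of KI mice on HFD. It had 37.3, 43.9 and 51.3 CPM in WT against 30.1, 33.9 and 40.3 CPM in KI mice (-0.33 ± 0.07, adjusted p = 0.0037). It was no longer called without KI mouse 6 (adjusted p = 0.0107), without the muscle-rich mice (-0.27, adjusted p = 0.0267), without the lymphocyte-rich mice (-0.34, adjusted p = 0.0101), with library totals (-0.24, adjusted p = 0.0188) or in the fit of all 6 groups (-0.33, adjusted p = 0.0471). In BAT it had 123, 218 and 260 CPM in WT against 188, 251 and 342 CPM in KI mice (0.32 ± 0.17, adjusted p = 0.257), and on chow the medians were 95.6 and 99.1 CPM. The 4 inguinal calls thus included both directions among genes of 1 pathway.

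Whether the genotype acted differently in the 2 tissues was tested as an interaction, the KI effect in BAT minus that in inguinal WAT on HFD, over 17214 genes, of which 2.82% were called. Of 9 genes tested, 2 were called. Hif1a had a difference of 0.56 ± 0.13 (adjusted p = 0.0086), with 0.21 in BAT against -0.32 in inguinal WAT, and Ndrg1 one of -0.84 ± 0.19 (adjusted p = 0.0060), with -0.41 against 0.46. Hif1a was not called with library totals (0.45, adjusted p = 0.0241) or with no filter on low counts (0.55, adjusted p = 0.0207), and lost its call in 20 of the 28 fits that left out 1 mouse. Ndrg1 lost its call in 9 of these 28. Neither was called without the muscle-rich mice (Hif1a 0.48, adjusted p = 0.0848, and Ndrg1 -0.95, adjusted p = 0.0121) or without the lymphocyte-rich mice (0.57, adjusted p = 0.0151, and -0.79, adjusted p = 0.0154). Vegfa (-0.84 ± 0.21, adjusted p = 0.0133) and Higd1a (0.68 ± 0.18, adjusted p = 0.0203) fell short in edgeR and were called by DESeq2 (adjusted p = 0.0039 and 0.0076), and Vegfa was also called by edgeR with library totals (-0.95, adjusted p = 0.0059). Egln3 differed by -2.50 ± 0.44, given as a description. For Ankrd37 the difference was -1.17 ± 0.61 (adjusted p = 0.264) and for Adm -0.77 ± 0.26 (adjusted p = 0.0633). Without BAT KI mouse 5, Egln1 was called (-0.57, adjusted p = 0.0071).

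Whether it acted differently on the 2 diets in inguinal WAT, HFD minus chow, gave 0 of 10 calls in edgeR and 0 in DESeq2, against 0.845% of 17400 genes in edgeR, with 4 genes at an unadjusted p below 0.05. Hif1a came nearest (-0.37 ± 0.11, adjusted p = 0.0633), followed by Higd1a (-0.37 ± 0.12, adjusted p = 0.107) and Adm (0.73 ± 0.26, adjusted p = 0.135). For Vegfa the difference was 0.28 ± 0.21 (adjusted p = 0.555), so the higher Vegfa of KI mice was not shown to depend on diet.

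Tissues and diets were also compared within a genotype. On HFD in WT mice 9 of 9 genes tested differed between BAT and inguinal WAT, where 55.9% of 17214 genes were called, and in KI mice 7 of 9, where 59.1% were called. Against such backgrounds these counts are not read as a result about the 9 genes. Ankrd37 was 10.5-fold higher in BAT of WT mice (3.40 ± 0.43), Egln1 4.74-fold (2.24 ± 0.12), Higd1a 4.60-fold (2.20 ± 0.13), Vegfa 2.10-fold (1.07 ± 0.15) and Egln2 2.04-fold (1.03 ± 0.11). Adm (-1.02 ± 0.18), Ndrg1 (-0.57 ± 0.14) and Hif1a (-0.33 ± 0.10) were lower in BAT, although Hif1a was not called without the muscle-rich mice (-0.27, adjusted p = 0.0431). In KI mice Hif1a (0.24 ± 0.09, adjusted p = 0.0273) and Vegfa were not called. The Vegfa difference was 0.24 ± 0.15 (adjusted p = 0.160) and that of Ankrd37 2.23 ± 0.44, with Adm at -1.79 ± 0.19, Ndrg1 at -1.41 ± 0.14 and Higd1a at 2.89 ± 0.13. Egln3, as a description, was 8.72-fold higher in BAT of WT mice and 1.54-fold in KI mice. Scaling mattered here, since with library totals the median of all genes moved to -0.60 from -0.09 in WT and to -0.74 from -0.12 in KI mice, Epas1 turned to -0.06 from 0.45 in WT and to -0.09 from 0.53 in KI mice, and Hif1a and Vegfa in KI mice turned from 0.24 and 0.24 to -0.39 and -0.38.

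Between the diets, 3 of 10 genes differed in inguinal WAT of WT mice, where 28.3% of 17400 genes were called, and 3 of 10 in KI mice, where 30.7% were. Higd1a was 0.456-fold in WT (-1.13 ± 0.09, adjusted p = 5.5e-11) and 0.354-fold in KI mice on HFD against chow (-1.50 ± 0.09, adjusted p = 1.6e-12), and neither pair of groups overlapped, as for 12.2% of genes in WT and 16.9% in KI mice. Egln2 was lower on HFD in both, by -0.76 ± 0.11 and -0.74 ± 0.12, also with no overlap. Hif1a was higher on HFD in WT mice (0.37 ± 0.08, adjusted p = 0.00032), against 0.00082 ± 0.081 in KI mice. Adm was 2.23-fold higher on HFD in KI mice (1.16 ± 0.20, adjusted p = 2.3e-05), against 0.43 ± 0.18 in WT mice (adjusted p = 0.0602). These diet effects were not shown to differ between the genotypes, as the interaction above gives the same differences.

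**Figure D4:**
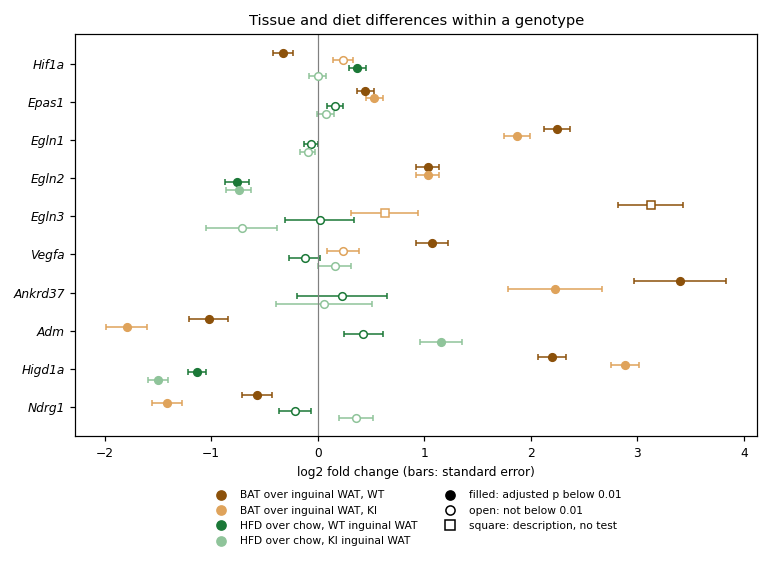
Fold change of each of the 10 genes between BAT and inguinal WAT on HFD (brown) and between HFD and chow in inguinal WAT (green), within WT mice (dark) and KI mice (light), on the log2 scale with its standard error. Egln1, Ankrd37 and Higd1a lay more than 1.8 above 0 in BAT over inguinal WAT in both genotypes, and Higd1a and Egln2 lay below 0 in HFD over chow in both.

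Per kb of gene length, Epas1 had the highest level in every group. In BAT of WT mice it had a mean of 139.8 CPM per kb, followed by Egln1 at 119 ± 24.5, Vegfa at 99.3 ± 26.9, Higd1a at 65.9 ± 16.2 and Egln2 at 42.5 ± 4.03 (SD, n = 6), and each of these overlapped its neighbour. Below a gap came Ndrg1 at 18.3, Ankrd37 at 11.2, Hif1a at 9.61, Adm at 8.99 and Egln3 at 5.65 CPM per kb, again with neighbours that overlapped. In inguinal WAT of WT mice on HFD, Epas1 (102 ± 9.51) and Vegfa (47.3 ± 7.25, SD, n = 8) stood apart from each other and from the rest, whereas Ndrg1, Egln1, Egln2, Adm, Higd1a and Hif1a formed an overlapping run from 27.1 down to 12.0 CPM per kb. Ankrd37 (1.05 ± 0.65) and Egln3 (0.644 ± 0.23) came last and overlapped. In KI mice on HFD the mean of Vegfa, 87.4 ± 17.3, came next to that of Epas1, 93.2 ± 7.69, and their ranges overlapped.

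The 10 genes did not vary as 1 group among mice. With each group's mean taken out, 4 of the 45 pairs are named here because their correlation was among the largest and of 1 sign in all 3 tables, chosen after their values were seen. Over 41 mice these were Hif1a with Adm (r = 0.58), Hif1a with Egln2 (-0.51), Epas1 with Ndrg1 (0.49) and Adm with Ndrg1 (0.46). Egln3 correlated with Ankrd37 at 0.32 and with Vegfa at -0.09. Ranked over 13033 genes, the genes most like Egln3 in log2 level with each group's mean taken out were Tbc1d30 (r = 0.65), Rel (0.60) and Atp1b1 (0.58).

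The other genes of the pathway were read in 6 lists of 88 genes in all. In BAT 5 of the 88 were called, in inguinal WAT on HFD 18 of 85 tested (21.2%) and on chow 13 of the 88. Not all of the 88 had the counts to be tested. The shares over all genes were 1.83%, 11.5% and 3.27%, and since the lists were chosen with earlier results known, nothing particular to them is read from this. The median over the 85 genes tested on HFD was 0.0097. In BAT 3 rose and 2 fell, on HFD 10 rose and 8 fell, and on chow 10 rose and 3 fell.

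Of 13 genes that control HIF (the beta subunits, the VHL complex, FIH and coactivators), 1 was called in BAT, Siah2 (0.99 ± 0.19), a ubiquitin ligase known to act on the prolyl hydroxylases PHD1 and PHD3. In inguinal WAT, Cul2, the cullin of the VHL ligase, was higher in KI mice on HFD (0.37 ± 0.06) and on chow (0.49 ± 0.07), and Cited2, which competes with HIF-1alpha for its coactivators, was lower on chow (-0.74 ± 0.13). The other control genes, with 10 in BAT, 12 on HFD and 10 on chow, did not pass the test. On chow without the lymphocyte-rich mice, 1 of 12 control genes was called higher and 0 lower, so Cited2 lost its call. Without the muscle-rich mouse 1 was higher and 1 lower.

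Of 20 glycolytic targets, 19 were tested in each comparison. On chow 4 rose in KI mice, Aldoa (1.74 ± 0.32), Gapdh (1.51 ± 0.25), Gpi1 (1.22 ± 0.21) and Eno1 (1.19 ± 0.23), and 17 of 19 fold changes were positive with a median of 0.57. KI mouse 4 on chow had the highest muscle marker sum of all mice. Without that mouse the same 4 passed, at 1.28 for Aldoa and 1.21 for Gapdh. Without the lymphocyte-rich mice 3 of 19 passed, and Aldoa (1.69, adjusted p = 0.0759) and Gapdh (1.41, adjusted p = 0.0326) did not. Brown adipocyte markers summed to 159 to 860 CPM in KI mice on chow, against 41.3 to 127 CPM in WT mice. The part of muscle and of brown adipocytes in these values was not tested. On HFD 1 rose, Gpi1 (0.40 ± 0.06), and 2 fell, Ppp1r3c (-1.13 ± 0.19), which targets a phosphatase to glycogen, and Pfkfb4 (-0.77 ± 0.11). In BAT 1 was called, Ppp1r3c, which fell (-1.24 ± 0.23).

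Of 15 targets for mitochondria and stress, 1 of 12 tested was called in BAT, Ero1l (1.35 ± 0.26), the oxidase that forms disulfide bonds in the endoplasmic reticulum. On HFD 4 of 15 were called, with Stc2 (1.37 ± 0.16) and Bhlhe40 (0.88 ± 0.14) higher and Car12, a carbonic anhydrase, lower (-2.41 ± 0.45). The other was Ero1l (0.45 ± 0.09), named after its values were seen. On chow 3 of 13 rose, led by Bhlhe40 (1.40 ± 0.21), a transcriptional repressor, and Ero1l (1.09 ± 0.16). Ero1l and Stc2 are also known as genes of the integrated stress response.

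Of 11 targets for matrix and oxygenases, Lox, the enzyme that crosslinks collagen, fell in BAT (-1.04 ± 0.20) and in inguinal WAT on HFD (-0.89 ± 0.12). On HFD P4ha2 rose (0.68 ± 0.12) and Plod2 fell (-0.43 ± 0.10), both hydroxylases of collagen, and on chow 0 of 11 passed edgeR's test. The 8 fibroblast and progenitor markers summed to 390 to 901 CPM in WT and 340 to 437 CPM in KI BAT. In inguinal WAT of WT and KI mice the sums were 1487 to 2530 and 1187 to 1795 CPM on HFD. On chow they were 1825 to 3521 and 1156 to 1720 CPM. Of these markers 2 were called lower in BAT, 2 on HFD and 1 on chow. The part of these cell types in the fall of Lox was not tested.

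Of 16 targets for vessels, iron and lipid, 15 were tested in each comparison. Ppp1r15a, a phosphatase subunit of the integrated stress response, rose in all 3 (1.55 ± 0.26 in BAT, 1.08 ± 0.14 on HFD and 1.07 ± 0.13 on chow). It and Ero1l were the only 2 of the 88 genes called in all 3 genotype comparisons. In inguinal WAT Angpt1, the ligand that quiets vessels through Tie2, fell on HFD (-1.16 ± 0.19) and on chow (-2.08 ± 0.37), whereas Apln (0.65 ± 0.16) and Angpt2 (0.54 ± 0.14) rose and Tfrc, the transferrin receptor, fell (-0.68 ± 0.16) on HFD. With all mice, 3 of 15 were called higher and 2 lower on HFD. Without the muscle-rich mice, and likewise without the lymphocyte-rich mice, only 1 of 15 was called higher there and 2 lower. Angpt2, outside the rule for naming, is given because it counters Angpt1 at the same receptor.

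Of 13 partners and paralogues of the 10 genes, 0 of 12 tested were called in BAT. In inguinal WAT Ndrg3 rose on HFD (0.39 ± 0.07) and on chow (0.40 ± 0.08), Ndrg2 fell on HFD (-0.54 ± 0.11), and Vegfc, the growth factor of lymphatic vessels, fell on chow (-1.19 ± 0.24). On chow 0 of 12 partners were called without the lymphocyte-rich mice, and 1 higher and 1 lower without the muscle-rich mouse. By edgeR, adipocyte markers had 0 of 8 called in BAT and on chow and 3 of 8 on HFD, with Lipe (0.54 ± 0.11) and Pnpla2 (0.46 ± 0.11) higher and Adipoq lower (-0.85 ± 0.10). In BAT Adipoq fell just short of the threshold (-0.67 ± 0.15, adjusted p = 0.0133). The paper, which used DESeq2, reports lower Adipoq in KI mice in BAT and on chow as well. Of the 9 brown adipocyte markers, 0 of 9 tested were called in BAT by edgeR and 2 of 5 tested in inguinal WAT on each diet. These were Cidea and Cox8b, higher in KI mice at 1.55 ± 0.27 and 1.04 ± 0.25 on HFD and 3.03 ± 0.56 and 2.42 ± 0.37 on chow. Without the lymphocyte-rich mice 0 of 5 were called on chow and 2 of 5 on HFD. Without the muscle-rich mice 2 of 5 were called on chow, 1 of 9 was called higher in BAT, and of 7 on HFD 1 was higher and 1 lower. Of 10 macrophage markers 2 were called on HFD, Itgax (-1.44 ± 0.28) and Clec7a (-0.83 ± 0.21), both lower, and 0 of 10 in BAT and on chow. Not all muscle, lymphocyte and epithelial markers had the counts to be tested. Of those tested, 0 of 3 muscle markers were called in BAT, 0 of 9 on HFD and 0 of 5 on chow, 0 of 2, 8 and 7 lymphocyte markers, and 0 of 1 epithelial marker on HFD, with none tested in BAT or on chow. The part of these cell types in the values of the 10 genes was not tested.

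**Figure D5:**
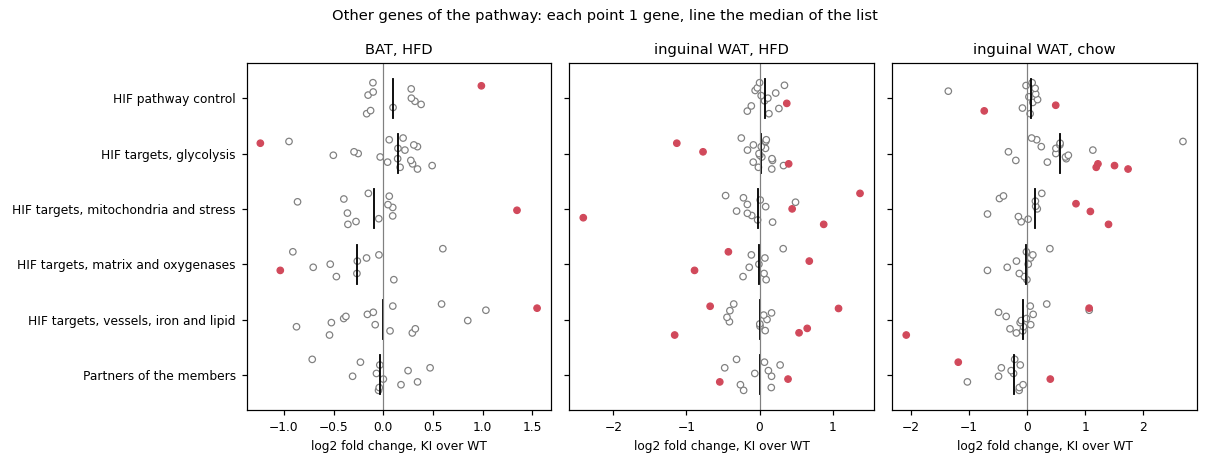
Fold change of each other gene of the pathway in KI over WT mice, on the log2 scale, by list, in BAT on HFD, inguinal WAT on HFD and inguinal WAT on chow, with axes that differ between panels. Red points had an adjusted p below 0.01 and lines mark the median of a list, which lay between -0.27 and 0.57 in all 3, the highest for glycolytic targets on chow. In BAT and on chow a point is also drawn for a gene that had too few counts to be tested, with a value not its own, and the line of its list includes it.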

How the data were processed

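RNA was sequenced from adipose tissue of 41 mouse columns, 57 samples in GEO's labels. Per the labels, cutadapt trimmed the reads, STAR placed them on GRCm38 and featureCounts counted them. The authors deposited raw counts per gene in 3 tables, with 1 column per mouse where a mouse had 2 technical replicates. Versions, the annotation release and the strand setting are not given in the sources used here. Each table held 54838 entries. Of these 1884 had no length or count, and 200 that shared 99 symbols held identical counts and were kept once per symbol, which left 52853 genes.

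Counts were scaled by TMM factors and tested with edgeR 4.0.16 (quasi-likelihood, robust, after filterByExpr) in R 4.3.3 with limma 3.58.1, separately for each table, or in 1 fit of 2 tables for the tissue and diet comparisons. The threshold was an adjusted p below 0.01 over all genes tested. With mice as replicates, 6 to 8 per group, p-values measure the spread between mice. The tissue comparisons took the mice of the 2 tables as different animals and used no pairing, since the sources do not say whether they were. Log2 CPM values used a prior count of 0.5. On simulated data for the BAT comparison (13267 genes) 70% of genes changed 2-fold and 11% of those changed 1.5-fold were called, against 63% and 34% in inguinal WAT on HFD (16471 genes), 50% and 17% on chow (14629 genes), 42% and 5% for the tissue difference (17214 genes) and 38% and 11% for the diet difference (17400 genes).

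The 10 genes and the lists of other genes were chosen with earlier results of these data known. The genes named were all 10 in every group, the 2 highest and 2 lowest called genes of each other list in each genotype comparison, Mfn2 and the 3 genes most like Egln3. The symbol Ero1l of the tables was read as Ero1a. Promoters came from RefSeq. Results were also computed with RLE size factors, with DESeq2 1.42.0, without the filter on low counts, with at least 10 counts in every mouse, at a threshold of 0.05, in a fit of all 6 groups, with the replicate number as a block and with each mouse left out. Library totals in place of TMM factors and leaving out the muscle-rich (over 5 times the group median) or lymphocyte-rich mice (over 3 times) were chosen after seeing the data.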

Additional observations from a re-analysis of the deposited data

Results flagged for a closer look

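In 60 groups of mice (10 genes in 6 groups), 3 held a mouse far from its fellows by Dixon's criterion, 5% of the groups, and chance gives about 1 in 20. In BAT, Egln1 stood at 603 CPM in KI mouse 5 against 314 to 345 CPM in the other 5. In BAT, Egln2 stood at 97.1 CPM in WT mouse 5 against 119 to 127 CPM in the other 5. In inguinal WAT on HFD, Ankrd37 stood at 3.16 CPM in KI mouse 2 against 0.487 to 1.18 CPM in the other 7, and that mouse also had the highest lymphocyte marker sum of the group, 670 CPM.

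The KI effect differed between BAT and inguinal WAT on HFD, by the interaction test of edgeR, for Hif1a (0.56 on the log2 scale, adjusted p = 0.0086) and for Ndrg1 (-0.84, adjusted p = 0.0060), of 9 genes tested. Neither was called without the muscle-rich mice (adjusted p = 0.0848 and 0.0121) or without the lymphocyte-rich mice (adjusted p = 0.0151 and 0.0154), and with 1 mouse left out Hif1a lost its call in 20 of 28 fits and Ndrg1 in 9. Tissue and run of libraries cannot be told apart in the levels, while each KI effect was measured within a table.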

How the results depend on the processing

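Of the member counts, the BAT count of 0 became 1 (Ankrd37) with DESeq2 and at 0.05. In inguinal WAT on HFD the count of 4 became 2 with the replicate block (Vegfa, Ndrg1), 2 without the muscle-rich mice, 2 in the fit of all 6 groups (Hif1a, Vegfa) and 1 without the lymphocyte-rich mice. On chow 0 became 1 (Vegfa) with DESeq2, at 0.05 and in the fit of all 6 groups. For the tissue difference 2 became 4 with DESeq2 and at 0.05, 1 with no filter on low counts (Ndrg1), and 0 without the muscle-rich or the lymphocyte-rich mice. The causes were not tested.

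Over 98 fits that each left out 1 mouse, the tissue count ranged from 0 to 3, and Hif1a lost its call in 20 of 28 and Ndrg1 in 9 of 28. The sign of 12 results changed, each of them a fold change that did not pass the test. In BAT Vegfa ranged from -0.063 to 0.18. On chow Epas1 ranged from -0.080 to 0.021, Ankrd37 from -0.47 to 0.076 and Higd1a from -0.013 to 0.12. The tissue difference of Egln2 ranged from -0.056 to 0.049, and the diet difference of Egln1 from -0.098 to 0.0081, of Egln2 from -0.079 to 0.077 and of Ankrd37 from -0.61 to 0.15. For HFD against chow, Egln3 ranged from -0.068 to 0.32 and Ankrd37 from -0.065 to 0.65 in WT mice, and Hif1a from -0.024 to 0.077 and Ankrd37 from -0.37 to 0.18 in KI mice.

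Other alternatives changed 27 signs. With library totals, Higd1a on chow was -0.0025, the tissue difference of Epas1 -0.030, the diet differences of Epas1 0.026 and Egln1 0.094, Egln1 on HFD against chow in KI mice 0.055, and in BAT against inguinal WAT Epas1 -0.062 in WT and -0.092 in KI mice, Hif1a -0.39 and Vegfa -0.38 in KI mice, with Egln3 at 2.60 and 0.014. Without the lymphocyte-rich mice, Egln3 in inguinal WAT on HFD was 0.033, Higd1a and Ndrg1 on chow -0.11 and 0.059, and Hif1a and Ankrd37 on HFD against chow in KI mice -0.056 and -0.13. Without the muscle-rich mice, Epas1 on chow was 0.021, the tissue differences of Epas1 and Egln2 -0.051 and 0.038, and the diet differences of Egln1, Egln2 and Ankrd37 0.0038, -0.032 and 0.085. The tissue difference of Egln2 was 0.0082 with DESeq2, 0.0085 with RLE and 0.0022 with at least 10 counts in every mouse, and its diet difference -0.0039, -0.0043 and -0.018 there and -0.0075 with the replicate block.

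Over all genes, DESeq2, the fit of all 6 groups and a threshold of 0.05 called 717, 835 and 952 genes in BAT against 243, and 1107, 1088 and 1263 on chow against 479. The replicate block called 119 on chow and 363 in BAT, and 25 against 147 for the diet difference. With it Hif1a and Higd1a in inguinal WAT on HFD lost their calls (adjusted p = 0.0165 and 0.0161), as did the tissue difference of Hif1a (0.0121), and that of Vegfa gained one (0.0074). It could not be fitted for the comparisons within a genotype. The labels do not say that a number marks a shared litter or day. Deviations of same-numbered KI and WT mice correlated at -0.17 to 0.60 (mean 0.19) in BAT, -0.34 to 0.65 (mean -0.04) on HFD and -0.54 to 0.24 (mean -0.05) on chow, so not every pair was above 0.1 in any table, and the best match of a mouse was its own number for 3 of 6, 2 of 8 and 1 of 6 mice. With library totals the split on HFD moved from 1023 higher and 863 lower to 1821 and 653, and in BAT against inguinal WAT of WT mice from 4622 and 4996 to 2446 and 8955. Depth limited Egln3 and Ankrd37, with 9 to 136 and 3 to 168 counts per mouse.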
